A study of Mus musculus with 32 samples.

Results

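Inhibitory ligands are surface or secreted proteins through which a cell dampens the lymphocytes that touch it. The 8 genes described here encode such ligands, and they were chosen by name: Cd274 (PD-L1) and Pdcd1lg2 (PD-L2), the ligands of the PD-1 receptor, with Cd276 (B7-H3), Lgals9 (galectin-9), Pvr (CD155), Nectin2 (CD112), Tnfrsf14 (HVEM) and Vsir (VISTA). All 8 were found among the 54429 gene symbols of the merged count table, and each matched 1 gene identifier. Their RNA was measured by bulk RNA-seq in Veravec cells, a mouse lung endothelial cell (EC) line, transfected 2 times with a control siRNA (si-control) or a pair of siRNA oligos against Dnmt1, the maintenance DNA methyltransferase (si-dnmt). Each siRNA was followed by no cytokine, TNFα at 10 ng/mL (TNF), IFNγ at 1000 U/mL (IFN), or both (TNF + IFN) for 16 h. The 8 groups of 4 biological replicates gave 32 libraries, all from 1 cell line, and the labels do not say whether replicates were separate cultures or days, so p-values measure the spread between these libraries. The comparisons ask how loss of Dnmt1 and the inflammatory cytokines, alone or together, set the ligand RNA that an EC carries.

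PD-L1 on ECs engages PD-1 on T cells, and its gene is a textbook target of IFNγ acting through JAK kinases and IRF1, with NF-kB as a further input from TNFα. Between them, CD155 and CD112 bind the inhibitory receptors TIGIT, CD96 and PVRIG, and both also bind the activating receptor CD226. Galectin-9 binds TIM-3, HVEM binds BTLA and CD160, VISTA binds IGSF11 and PSGL-1, and the inhibitory receptor of B7-H3 is not settled.

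Libraries held 17362546 to 33500030 counts (median 20859668), and 15254 genes passed a filter on low counts. Of the 8 ligands, 7 passed. Dnmt1 ranged from 86.5 to 211 CPM (counts scaled by library total and composition) in the si-control libraries and from 5.11 to 17.3 CPM in the si-dnmt libraries, with no overlap. Defining endothelial genes were abundant, with Cdh5 at 847 to 2881 CPM and Pecam1 at 646 to 2166 CPM, whereas Cldn5 (median 3.99 CPM) and Vwf (median 7.30 CPM) were low. Of the leukocyte markers, Cd3e and Nkg7 were at 0 in all libraries and Ptprc had at most 3 counts. Cd68 was at 49.1 to 214 CPM and Lyz2 at 1.21 to 133 CPM. The summed level of the 8 leukocyte markers was 67.6 to 232 CPM. Of the 6 epithelial markers (summed 3.65 to 22.6 CPM, nearly all Krt18), Epcam had at most 3 counts and Sftpc had 0. Within each group, replicates 1 and 2 stood apart from replicates 3 and 4 for several ligands, so values are also given within each pair of replicates. Those fits have 2 libraries a group, and their p-values measure only the spread within that pair. For the ligands, values from a fit with the replicate number as a block are given wherever that changes a call. Libraries of the same pair of replicates deviated together across groups, and pairing by single number was assumed.

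The start regions of Cd274, Tnfrsf14 and Lgals9 are shown first because they were the ligand promoter windows that held an interferon-response motif. The 250 bases before the RefSeq start site (GRCm38.p6) are given 5′ to 3′ on the strand of the gene. They lie at chr19:29367188-29367437 on the plus strand for Cd274, chr4:154928078-154928327 on the minus strand for Tnfrsf14 and chr11:78984925-78985174 on the minus strand for Lgals9. Capitals mark GAAANNGAA on either strand, the shortened form of the interferon-stimulated response element (ISRE).
Cd274: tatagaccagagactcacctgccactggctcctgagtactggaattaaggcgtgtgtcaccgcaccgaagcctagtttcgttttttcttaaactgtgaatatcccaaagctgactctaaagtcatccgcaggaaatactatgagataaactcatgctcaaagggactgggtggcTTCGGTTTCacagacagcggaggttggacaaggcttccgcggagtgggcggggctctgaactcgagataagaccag
Tnfrsf14: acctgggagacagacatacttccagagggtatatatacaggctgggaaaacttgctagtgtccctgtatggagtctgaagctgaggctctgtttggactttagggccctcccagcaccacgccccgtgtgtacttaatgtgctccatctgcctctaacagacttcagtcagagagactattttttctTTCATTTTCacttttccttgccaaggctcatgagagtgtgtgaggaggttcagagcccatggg
Lgals9: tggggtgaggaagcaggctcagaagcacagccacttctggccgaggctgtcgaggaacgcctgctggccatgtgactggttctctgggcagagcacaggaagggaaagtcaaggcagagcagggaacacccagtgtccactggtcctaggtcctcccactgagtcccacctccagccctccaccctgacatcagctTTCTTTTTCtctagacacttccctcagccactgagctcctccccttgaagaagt

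The full ISRE (GAAANNGAAA, both strands) was present in the windows of Tnfrsf14 and Lgals9, beginning 64 and 55 bases before the start, with another in Lgals9 at base 16 after it. It was present in 3.44% of all 32851 mouse promoter windows of the same 300 bases (250 before to 50 after the start). Cd274 held only the shortened form, 76 bases before its start, a motif that overlaps the full ISRE, is found in 8.56% of windows, and was added to the search after the sequence had been seen. The interferon gamma-activated site, GAS (TTCNNNGAA), was found in none of the 7 ligand windows given by the RefSeq table (all but Pvr) and in 8.30% of all windows, and the NF-kB consensus was found only in Pdcd1lg2, 244 bases before its start, against 4.51% of all windows. CpG dinucleotides in the 300 bases numbered 39 in Cd276, 20 in Nectin2, 15 in Cd274 and 15 in Vsir, but 4 in Lgals9, 3 in Pdcd1lg2 and 2 in Tnfrsf14 (median of all windows 7). These matches describe letters, not occupied or methylated sites, and DNA methylation was not measured in these libraries.

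Per kilobase of annotated exon, Lgals9 was the most abundant of the ligands (mean over the 32 libraries 278 CPM per kb), followed by Cd274 (82.6), Nectin2 (41.3), Pvr (17.2), Cd276 (11.8), Tnfrsf14 (4.60) and Vsir (0.441). Pdcd1lg2 was close to absent. It had 23 counts over all 32 libraries, 0 in 21 of them and at most 5 in any, so it did not pass the filter. All 4 si-control + IFN libraries had 0 counts, as did all 4 si-dnmt libraries without cytokine, where a count of 0 allows up to 3. The highest count was in a si-dnmt + TNF library. With no filter, Pdcd1lg2 was called in 0 of 19 contrasts by the edgeR quasi-likelihood test, with an unadjusted p under 0.05 in 2. Cd274 thus made up nearly all PD-1 ligand RNA measured in every group. Without a stated strand setting, reads of a ligand and of an opposite-strand gene cannot be told apart. In GENCODE M21 such genes share 511 of the 3622 exon bases of Cd274 (AC119228.1, not in the count table), 416 of the 3658 of Cd276 (Gm10657, at most 0.371 CPM) and 135 of the 3494 of Nectin2 (Gm20512, at most 0.359 CPM).

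Cd274 covered the widest range of the ligands, with an 88.7-fold ratio between its highest and lowest group means. In si-control cells without cytokine it was at 7.27, 8.32, 9.32 and 9.06 CPM in replicates 1 to 4. In si-dnmt cells it was at 23.6, 23.3, 21.5 and 22.3 CPM. The groups did not overlap, and the log2 fold change was 1.42 ± 0.25 (SE, adjusted p = 0.000187, quasi-likelihood test of edgeR, Benjamini-Hochberg adjusted over 15254 genes, as are all adjusted p-values below). TNF brought Cd274 to 51.4, 68.2, 46.9 and 42.9 CPM in si-control cells and to 92.2, 98.6, 72.9 and 74.1 CPM in si-dnmt cells, again without overlap. IFN brought it to 649, 661, 297 and 286 CPM in si-control cells and to 427, 490, 334 and 323 CPM in si-dnmt cells. Replicates 1 and 2 of si-control + IFN lay above every si-dnmt + IFN library, and replicates 3 and 4 lay below all of them. With both cytokines Cd274 was at 758, 771, 466 and 422 CPM in si-control cells and at 894, 886, 600 and 632 CPM in si-dnmt cells. Ordered by mean, the groups were si-control, si-dnmt, si-control + TNF, si-dnmt + TNF, si-dnmt + IFN, si-control + IFN, si-control + TNF + IFN and si-dnmt + TNF + IFN, in which the ranges of the last 4 overlapped each neighbor and the others did not overlap.

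Tnfrsf14, which encodes the ligand of BTLA, was at far lower levels and was likewise highest in the groups given IFN. It was at 0.938, 0.583, 1.3 and 0.762 CPM in si-control cells and at 2.67, 2.01, 2.22 and 2.64 CPM in si-dnmt cells, without overlap. With TNF it reached 2.71, 3.52, 2.47 and 2.88 CPM in si-control cells and 4.67, 6.24, 4.75 and 4.78 CPM in si-dnmt cells. With IFN it was at 11.5, 10.3, 7.53 and 8.16 CPM in si-control cells and at 11.9, 12.3, 9.06 and 10.4 CPM in si-dnmt cells, where the groups overlapped. With both cytokines it was at 10.4, 10.1, 7.33 and 7.83 CPM in si-control cells and at 13.5, 15.4, 9.83 and 11.1 CPM in si-dnmt cells. Across the 32 libraries the log2 CPM of Tnfrsf14 and Cd274 had a Pearson r of 0.969, a description over libraries that share their cytokine groups and replicate numbers. No other pair of ligands exceeded 0.706 (Lgals9 with Tnfrsf14).

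**Figure D1:**
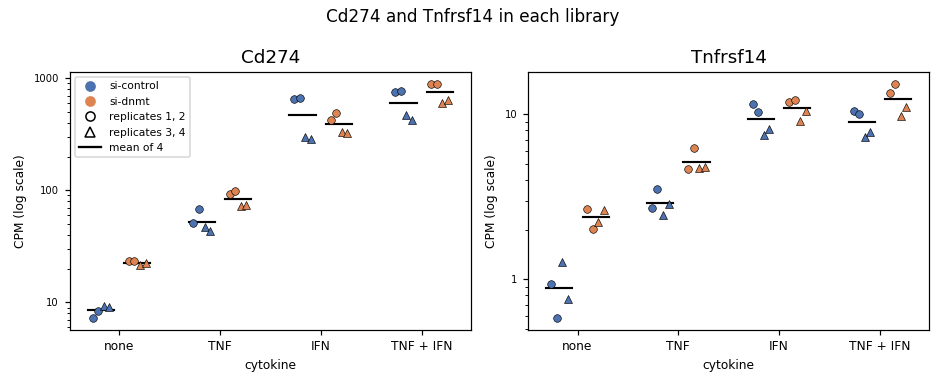
Cd274 and Tnfrsf14 RNA in each of the 32 libraries, as CPM on a log axis against cytokine state, with si-control in blue, si-dnmt in orange, circles for replicates 1 and 2, triangles for replicates 3 and 4 and a bar for the mean of 4. Without cytokine and with TNF the si-dnmt libraries lie above the si-control libraries for both genes, and with IFN the siRNA groups overlap.

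Next, the effect of the siRNA was compared in the 4 cytokine states. Of the 7 ligands tested, 5 were called without cytokine, 4 with TNF, 2 with IFN and 2 with TNF + IFN, where 18.5%, 20.0%, 20.3% and 17.7% of all genes tested were called. With the replicate block the counts were 6, 5, 4 and 4, against 32.4%, 33.4%, 34.5% and 30.8% of genes. The median log2 fold change of the 7 ligands was 0.33 without cytokine, 0.42 with TNF, -0.27 with IFN and 0.32 with TNF + IFN, where the medians over all genes tested lay between -0.0067 and 0.0038. In bulk RNA, fewer cells with a transcript and less of it per cell cannot be told apart.

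Pvr and Cd276 differed between the siRNAs in every state. Pvr, whose product binds TIGIT and CD226, was 1.97- to 2.12-fold lower in si-dnmt cells. Without cytokine it was at 151, 161, 91.6 and 96.8 CPM in si-control cells and at 78.1, 73.6, 48.9 and 52.6 CPM in si-dnmt cells. With TNF it was at 167, 176, 152 and 150 CPM against 82.4, 85.4, 69.5 and 66.8 CPM. With IFN it was at 128, 120, 75.2 and 86.7 CPM against 59.6, 60.6, 43.1 and 41.9 CPM, and with both at 211, 215, 139 and 136 CPM against 94.2, 118, 69.5 and 71.3 CPM. In each of the 4 states the lowest si-control library lay above the highest si-dnmt library. The log2 fold change was -0.98 without cytokine, -1.08 with TNF, -1.0 with IFN and -0.99 with TNF + IFN, each with an SE of 0.22, and the adjusted p ran from 0.000592 with TNF to 0.00169 without cytokine. Within replicates 1 and 2 these values lay between -1.05 and -1.01, and within replicates 3 and 4 between -1.15 and -0.89.

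Cd276 moved the other way. It was at 41.0, 48.5, 40.5 and 41.2 CPM in si-control cells and at 56.2, 49.1, 56.0 and 53.4 CPM in si-dnmt cells, a log2 fold change of 0.33 ± 0.09 (SE, adjusted p = 0.0107). With TNF it was at 41.9, 48.2, 39.7 and 38.3 CPM against 51.9, 57.7, 52.9 and 57.4 CPM (0.39 ± 0.09, adjusted p = 0.00275). With IFN it was at 27.8, 33.2, 31.5 and 32.1 CPM against 42.3, 41.5, 43.4 and 48.2 CPM (0.49 ± 0.09, adjusted p = 0.000254). With both it was at 35.3, 32.6, 27.3 and 27.9 CPM against 47.9, 50.2, 45.1 and 42.7 CPM (0.59 ± 0.09, adjusted p = 3.21e-05). The siRNA groups did not overlap in any state. Within replicates 1 and 2 alone, the Cd276 difference was not called in cells given no cytokine (0.25, adjusted p = 0.112) or TNF alone (0.28, adjusted p = 0.0620).

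Cd274 and Tnfrsf14 were higher in si-dnmt cells without cytokine and with TNF, the states in which they were low. With TNF, Cd274 differed by 0.69 ± 0.24 (SE, adjusted p = 0.0398) and Tnfrsf14 by 0.82 ± 0.19 (adjusted p = 0.00249). The Cd274 call was lost when replicate 1, 3 or 4 of si-control + TNF or replicate 1 or 2 of si-dnmt + TNF was left out (0.61 to 0.68, adjusted p from 0.0794 to 0.108). In the IFN state the Cd274 difference was -0.27 ± 0.23 (adjusted p = 0.466), from -0.53 within replicates 1 and 2 (adjusted p = 0.000659) to 0.17 within replicates 3 and 4 (adjusted p = 0.0786). With TNF + IFN, Cd274 differed by 0.32 ± 0.23 (adjusted p = 0.397), higher in si-dnmt in each of the 4 replicates, and was called within replicates 3 and 4 (0.47, adjusted p = 3.1e-05) but not within replicates 1 and 2 (0.22, adjusted p = 0.140). In the same state Tnfrsf14 differed by 0.48 ± 0.18 (adjusted p = 0.0654), which was called with the replicate block (0.48, adjusted p = 0.0108) and without replicate 3 of si-dnmt + TNF + IFN (0.57, adjusted p = 0.0424). A DESeq2 fit (0.49) also called it, as did replicates 1 and 2 alone (0.49, adjusted p = 0.0400) and replicates 3 and 4 alone (0.46, adjusted p = 0.0358). Before any cytokine the difference was 1.41 ± 0.21 for Tnfrsf14 (adjusted p = 2.61e-05), close in size to that of Cd274.

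Lgals9, the most abundant ligand, had higher means in si-dnmt cells in all 4 states, but whether the difference was called depended on the fit. It was at 396, 395, 458 and 427 CPM in si-control cells and at 666, 661, 439 and 508 CPM in si-dnmt cells, so in replicate 3 the si-dnmt library was the lower one. The log2 fold change of 0.44 ± 0.16 (SE, adjusted p = 0.0478) was 0.76 within replicates 1 and 2 (adjusted p = 1.55e-06) and 0.10 within replicates 3 and 4 (adjusted p = 0.439). The call was lost when any 1 of the 4 si-control libraries or replicate 1 or 2 of si-dnmt was left out (0.36 to 0.48, adjusted p from 0.0527 to 0.145). In the cytokine states Lgals9 was not called, and the difference was called with the replicate block, at 0.43, 0.30 and 0.41 with TNF, IFN and TNF + IFN (adjusted p = 0.000858, 0.0146 and 0.00146). A DESeq2 fit also called it with TNF (0.43) and with TNF + IFN (0.41). Each pair of replicates alone called it in each of these cytokine states. Leaving out replicate 2 of si-control + TNF (0.51, adjusted p = 0.0351) or of si-control + TNF + IFN (0.49, adjusted p = 0.0463) also gave a call in the state of that library. Nectin2, the CD112 gene, was at 102 to 190 CPM in si-control cells and at 61.5 to 178 CPM in si-dnmt cells without cytokine, with overlapping groups. Its difference was not called without the block, and with it was called at -0.40 and -0.32 without cytokine and with IFN (adjusted p = 0.00558 and 0.0244). Replicates 3 and 4 alone gave calls of -0.64 and -0.46 (adjusted p = 0.000457 and 0.00711), whereas replicates 1 and 2 gave -0.18 and -0.20 (adjusted p = 0.285 and 0.204). Vsir, at 1.86 to 3.43 CPM in si-control cells and 1.92 to 4.21 CPM in si-dnmt cells, was not called in any state by either fit.

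**Figure D2:**
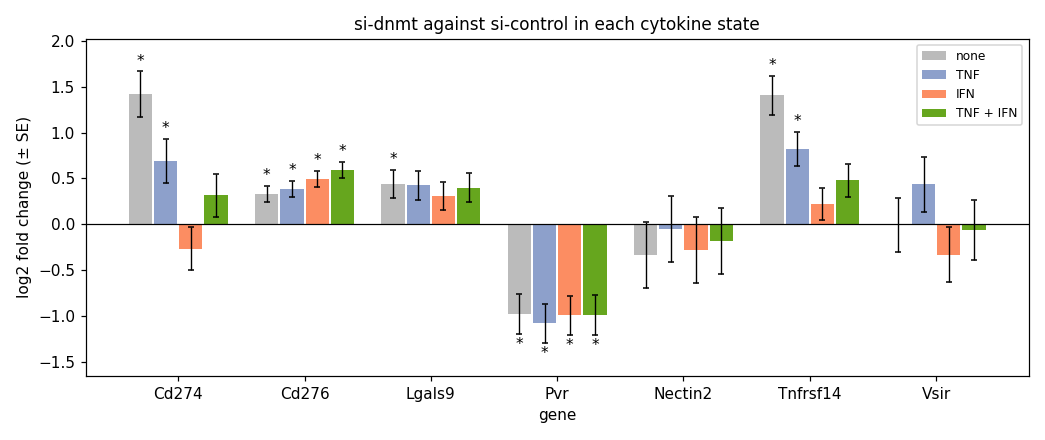
Log2 fold change (± SE, 4 libraries a group) of si-dnmt against si-control for the 7 ligands tested, in each cytokine state, with a star where the adjusted p was under 0.05. Pvr is near -1 and Cd276 above 0 in all 4 states, whereas Cd274 and Tnfrsf14 are raised without cytokine and with TNF.

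**Figure D3:**
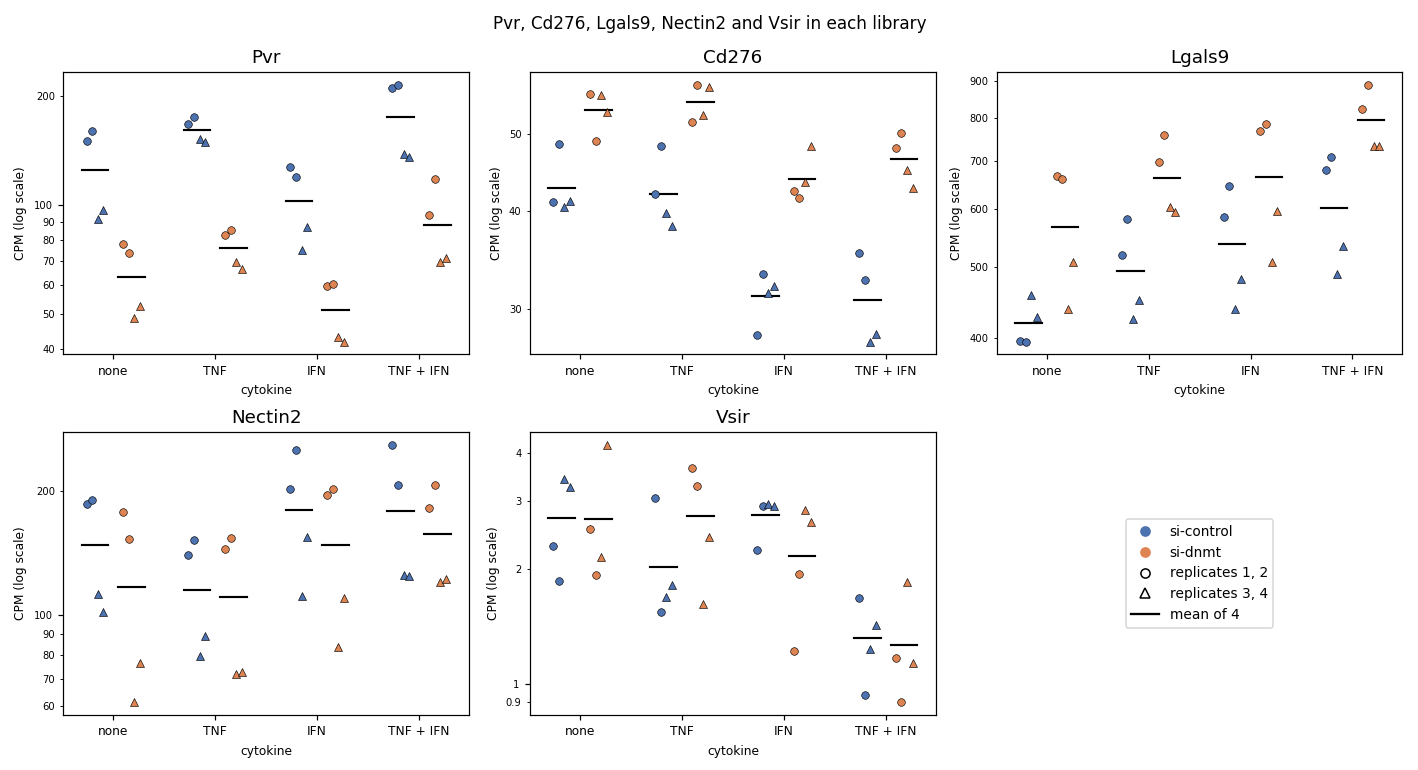
Pvr, Cd276, Lgals9, Nectin2 and Vsir RNA in each library, as CPM on log axes that differ in range between genes, with si-control in blue, si-dnmt in orange, circles for replicates 1 and 2, triangles for replicates 3 and 4 and a bar for the mean of 4. The siRNA groups of Pvr and Cd276 are separate in each state, and Nectin2 has replicates 1 and 2 above replicates 3 and 4 in all 8 groups.

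To determine how the ligands responded to the cytokines, each state was compared with none within each siRNA, and the 3 comparisons of an siRNA share its libraries without cytokine. In si-control cells 2, 3 and 5 of the 7 ligands were called with TNF, IFN and TNF + IFN, where 30.8%, 14.5% and 45.2% of all genes were called. In si-dnmt cells the counts were 2, 3 and 4, against 21.0%, 9.01% and 40.2% of genes. With the replicate block they were 4, 5 and 7 in si-control cells (43.4%, 25.4% and 55.1% of genes) and 3, 5 and 7 in si-dnmt cells (34.3%, 19.0% and 51.7%). The summed level of the 10 endothelial markers was 6020 to 9362 CPM in si-control, 4041 to 5559 CPM in si-control + TNF and 3853 to 5036 CPM in si-control + TNF + IFN, with 5 and 8 of the 10 lower by the test with TNF and TNF + IFN (1 with IFN, at 5038 to 7997 CPM). The summed level of the 8 fibroblast and pericyte markers was 2.06 to 6.28 CPM in si-control and 16.4 to 56.8 CPM in si-control + TNF, where Dcn reached 53.8 CPM, while Lum had at most 3 counts. The part of these marker levels in the cytokine responses was not tested.

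Cd274 had the largest responses of the 7 ligands. In si-control cells TNF raised it by 2.62 ± 0.26 on the log2 scale (6.16-fold, SE, adjusted p = 8.5e-09), IFN by 5.80 ± 0.29 (55.7-fold, adjusted p = 5.64e-15) and the pair by 6.15 ± 0.30 (71.1-fold, adjusted p = 7.67e-16). In si-dnmt cells it was 1.90 ± 0.25 (adjusted p = 1.81e-06), 4.12 ± 0.27 (adjusted p = 2.76e-12) and 5.05 ± 0.28 (adjusted p = 2.31e-14). Within replicates 1 and 2 of si-control the IFN response was 6.42, and within replicates 3 and 4 it was 4.99. Tnfrsf14 rose by 1.68 ± 0.21 with TNF, 3.38 ± 0.21 with IFN and 3.31 ± 0.21 with TNF + IFN in si-control cells, with adjusted p-values from 3.5e-13 to 7.03e-07. In si-dnmt cells it rose by 1.10 ± 0.19, 2.19 ± 0.19 and 2.38 ± 0.19, with adjusted p-values from 5.48e-11 to 0.000109.

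Cd276 fell with IFN. In si-control cells the log2 fold change was -0.46 ± 0.09 for IFN and -0.47 ± 0.09 for TNF + IFN (SE, adjusted p = 0.000566 and 9.71e-05), and the highest library of either IFN group, at 35.3 CPM, lay below the lowest library of si-control or si-control + TNF, at 38.3 CPM. In si-dnmt cells it was -0.29 ± 0.09 with IFN (adjusted p = 0.0391), a call lost without replicate 1, 3 or 4 of si-dnmt or replicate 1, 2 or 3 of si-dnmt + IFN (-0.29 to -0.26, adjusted p from 0.0704 to 0.127). With TNF + IFN it was -0.21 ± 0.09 (adjusted p = 0.0670), called with the block (-0.21, adjusted p = 0.0386) and without replicate 2 of si-dnmt or of si-dnmt + TNF + IFN (-0.25 in both, adjusted p = 0.0432 and 0.0492). It was -0.10 within replicates 1 and 2 (adjusted p = 0.507) and -0.32 within replicates 3 and 4 (adjusted p = 0.00432). Vsir, a B7-family protein that is itself a ligand and a receptor, fell when both cytokines were present. It was at 2.30, 1.86, 3.43 and 3.27 CPM in si-control and 1.68, 0.937, 1.23 and 1.43 CPM in si-control + TNF + IFN, from 18 to 78 counts a library, and the groups did not overlap. The log2 fold change was -1.04 ± 0.31 (SE, adjusted p = 0.00802) in si-control cells and -1.10 ± 0.31 (adjusted p = 0.00610) in si-dnmt cells, and within replicates 1 and 2 of si-control it was -0.64 (adjusted p = 0.157).

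Lgals9 rose with TNF + IFN in si-control cells, from 395 to 458 CPM without cytokine to 680, 709, 490 and 534 CPM (0.53 ± 0.16, SE, adjusted p = 0.00703). The rise was 0.83 within replicates 1 and 2 (adjusted p = 5.74e-08) and 0.21 within replicates 3 and 4 (adjusted p = 0.0551). In si-dnmt cells it was 0.48 ± 0.16 (adjusted p = 0.0139), and 0.38 without replicate 3 of si-dnmt (adjusted p = 0.0687). The Lgals9 response to IFN in si-control cells was 0.36 (adjusted p = 0.134) and was called with the block (0.33, adjusted p = 0.0112). It was 0.66 within replicates 1 and 2 (adjusted p = 4.45e-06) and 0.06 within replicates 3 and 4 (adjusted p = 0.729). Without the block Pvr and Nectin2 were not called against none. With the block, Pvr was higher with TNF (0.41 in si-control, adjusted p = 0.000300, and 0.29 in si-dnmt, adjusted p = 0.0117), lower with IFN (-0.28, adjusted p = 0.0185, and -0.30, adjusted p = 0.0173) and higher with both (0.50, adjusted p = 1.71e-05, and 0.48, adjusted p = 4.13e-05). The rise with TNF was 0.68 in si-control cells (adjusted p = 2.92e-07) and 0.43 in si-dnmt cells (adjusted p = 0.000349) within replicates 3 and 4, but 0.16 and 0.15 within replicates 1 and 2 (adjusted p = 0.193 and 0.228). The difference with TNF + IFN was also called in si-control cells without replicate 1 or 2 of si-control or replicate 3 or 4 of si-control + TNF + IFN (0.57 to 0.63, adjusted p from 0.0264 to 0.0445), and in si-dnmt cells without replicate 1 of si-dnmt or replicate 3 of si-dnmt + TNF + IFN (0.59 and 0.58, adjusted p = 0.0456 and 0.0472). Nectin2 was lower with TNF in si-control cells (-0.36, adjusted p = 0.00926) and higher with TNF + IFN in both siRNAs (0.26, adjusted p = 0.0461, and 0.52, adjusted p = 0.000271) with the block, and higher with IFN in si-dnmt cells (0.37, adjusted p = 0.0185). In si-dnmt cells the Nectin2 values were 0.24 with TNF + IFN (adjusted p = 0.0871) and 0.27 with IFN (adjusted p = 0.105) within replicates 1 and 2, against 0.81 and 0.49 within replicates 3 and 4 (adjusted p = 1.93e-05 and 0.00965). In all 8 groups the mean of Nectin2 replicates 1 and 2 lay above that of replicates 3 and 4.

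**Figure D4:**
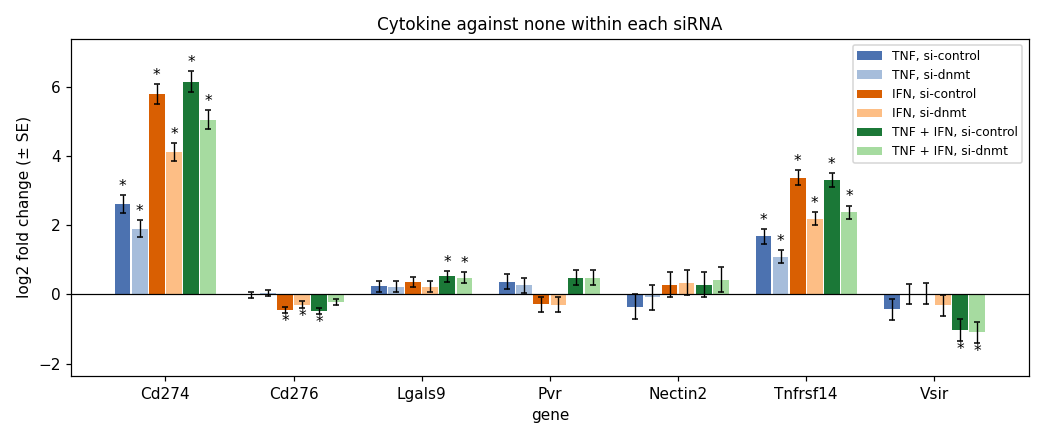
Log2 fold change (± SE, 4 libraries a group) of each cytokine state against none for the 7 ligands tested, with si-control in dark and si-dnmt in light shades and a star where the adjusted p was under 0.05. Cd274 and Tnfrsf14 rise in all 6 comparisons, Cd276 falls with IFN and Vsir falls with TNF + IFN.

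The gain from adding the second cytokine was then measured. Against TNF alone, TNF + IFN gave calls for 3 of the 7 ligands in si-control cells and 3 in si-dnmt cells (21.0% and 17.5% of genes), and against IFN alone for 2 and 2 (29.1% and 23.6%). With the block these counts were 5, 6, 3 and 4 (33.9%, 29.7%, 41.9% and 35.9%). IFN on top of TNF raised Cd274 by 3.53 ± 0.26 (SE) in si-control cells (adjusted p = 3.23e-11) and 3.16 ± 0.26 in si-dnmt cells (adjusted p = 2.98e-10), and Tnfrsf14 by 1.63 ± 0.19 (adjusted p = 1.76e-07) and 1.28 ± 0.18 (adjusted p = 6.74e-06). TNF on top of IFN raised Cd274 by 0.94 ± 0.24 in si-dnmt cells (adjusted p = 0.00402). In si-control cells that difference was 0.35 ± 0.23 (adjusted p = 0.278), called with the block (0.38, adjusted p = 0.0410), and it was 0.22 within replicates 1 and 2 and 0.61 within replicates 3 and 4.

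TNF on top of IFN raised Pvr under both siRNAs, by 0.78 ± 0.21 (SE) in si-control cells (adjusted p = 0.00686) and 0.78 ± 0.22 in si-dnmt cells (adjusted p = 0.00812), the latter 0.61 without replicate 2 of si-dnmt + TNF + IFN (adjusted p = 0.0520). Cd276 fell when IFN was added to TNF in si-control cells (-0.45 ± 0.09, adjusted p = 0.000510), and in si-dnmt cells the difference was -0.24 (adjusted p = 0.0637, and 0.0315 with the block). Vsir fell when TNF was added to IFN in si-control cells (-1.05 ± 0.31, adjusted p = 0.0120; -0.90 without replicate 2 of si-control + TNF + IFN, adjusted p = 0.0501). In si-dnmt cells that difference was -0.78 (adjusted p = 0.0732), and was called with the block (-0.80, adjusted p = 0.0472) or without replicate 1 of si-dnmt + IFN or replicate 3 of si-dnmt + TNF + IFN (-0.97 and -1.03, adjusted p = 0.0304 and 0.0327). Vsir also fell when IFN was added to TNF in si-dnmt cells (-1.12 ± 0.32, adjusted p = 0.0128), with -1.74 within replicates 1 and 2 (adjusted p = 0.000924) and -0.44 within replicates 3 and 4 (adjusted p = 0.393). That call was lost without replicate 1 of si-dnmt + TNF (-0.95, adjusted p = 0.0560) or replicate 2 of si-dnmt + TNF + IFN (-0.99, adjusted p = 0.0560). Nectin2 was not called between TNF + IFN and TNF alone without the block, and with it was higher by 0.62 in si-control cells (adjusted p = 5.63e-05) and 0.56 in si-dnmt cells (adjusted p = 0.000232). This was also called within replicates 1 and 2 (0.68 and 0.38, adjusted p = 4.93e-05 and 0.0135) and within replicates 3 and 4 (0.57 and 0.74, adjusted p = 0.00204 and 0.000142). Lgals9 was called with the block when IFN was added to TNF (0.28, adjusted p = 0.0223, and 0.26, adjusted p = 0.0359) and, in si-dnmt cells, when TNF was added to IFN (0.27, adjusted p = 0.0246), the last from 0.14 within replicates 1 and 2 (adjusted p = 0.236) and 0.41 within replicates 3 and 4 (adjusted p = 0.00112).

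Whether the siRNA changed a cytokine response was tested by their interaction. Of 21 tests over the 7 ligands, edgeR called 0, with 7 at an unadjusted p under 0.05, where 0.0328% (TNF), 0.0459% (IFN) and 0.531% (TNF + IFN) of all genes were called. DESeq2 called 2, and the replicate block 4, against 0.387% of genes for IFN and 4.18% for TNF + IFN. The 4 were Cd274 and Tnfrsf14 with IFN and with TNF + IFN. For Cd274 the interaction with IFN was -1.68 ± 0.34 (SE, adjusted p = 0.0594) and -1.62 with the block (adjusted p = 0.000148). It was -2.13 within replicates 1 and 2 (adjusted p = 4.66e-08) and -1.08 within replicates 3 and 4 (adjusted p = 2.49e-05). Leaving out replicate 3 or 4 of si-control + IFN (-1.86 in both, adjusted p = 0.0158 and 0.0146) or replicate 2 of si-dnmt + IFN (-1.80, adjusted p = 0.0495) gave a call. For Cd274 with TNF + IFN the interaction was -1.10 ± 0.34 (adjusted p = 0.184) and -1.06 with the block (adjusted p = 0.00619). For Tnfrsf14 it was -1.19 ± 0.28 for IFN (adjusted p = 0.134, and 0.0157 under the block) and -0.93 ± 0.28 for TNF + IFN (adjusted p = 0.154, and 0.0270 under the block). Without replicate 3 of si-control the Tnfrsf14 interaction with IFN was -1.41 (adjusted p = 0.0455), and it was -1.46 within replicates 1 and 2 (adjusted p = 0.0251) and -0.93 within replicates 3 and 4 (adjusted p = 0.198).

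The ratio of same-numbered libraries, a pairing that was assumed, shows the same values without a model. For Cd274 the si-dnmt level was 3.24, 2.80, 2.31 and 2.46 times the si-control level without cytokine in replicates 1 to 4, and 1.79, 1.45, 1.55 and 1.73 times with TNF. With IFN it was 0.658, 0.742, 1.12 and 1.13 times, so replicates 1 and 2 lay below 1 and replicates 3 and 4 above it, and with both cytokines it was 1.18, 1.15, 1.29 and 1.5 times. For Tnfrsf14 the ratios were 2.85, 3.45, 1.74 and 3.46 without cytokine and 1.04, 1.19, 1.2 and 1.28 with IFN. In each replicate both genes had a lower ratio with IFN than without cytokine.

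**Figure D5:**
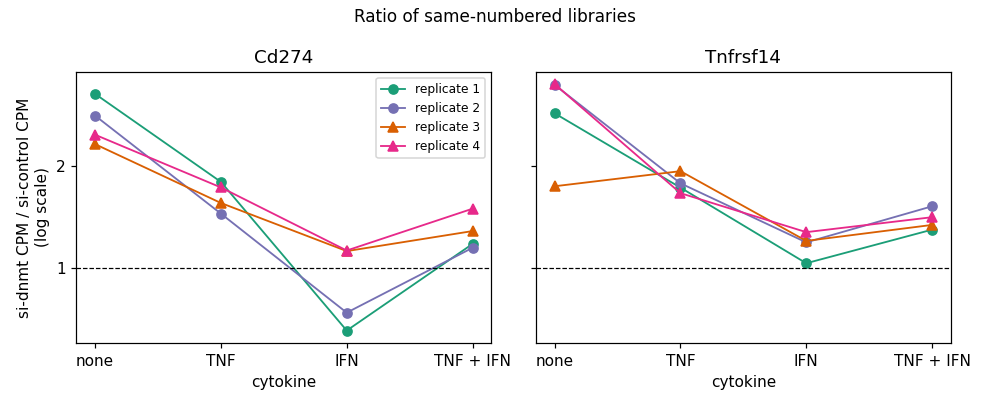
Ratio of si-dnmt to si-control CPM of same-numbered libraries for Cd274 and Tnfrsf14 in each cytokine state, on a log axis, with 1 line per replicate and a dashed line at 1. The lowest ratio without cytokine is 1.74 (Tnfrsf14, replicate 3) and the highest with IFN is 1.28 (Tnfrsf14, replicate 4).

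The 2 cytokines combined less than additively on the log scale for Cd274 and Tnfrsf14. In si-control cells 2 of the 7 ligands were called for the TNF-by-IFN interaction (1.06% of genes), Cd274 at -2.27 ± 0.34 (SE, adjusted p = 0.000240) and Tnfrsf14 at -1.75 ± 0.28 (adjusted p = 0.000529). In si-dnmt cells edgeR and DESeq2 both called 0 of 7, with 2 at an unadjusted p under 0.05 (0.354% of genes), and the block called 3 (1.82% of genes). The 3 were Cd274 (-0.94, adjusted p = 0.0175), Tnfrsf14 (-0.90, adjusted p = 0.0186) and Pvr (0.48, adjusted p = 0.0385), which was 0.67 within replicates 1 and 2 (adjusted p = 0.00373) and 0.30 within replicates 3 and 4 (adjusted p = 0.261).

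Genes whose log2 CPM followed each ligand most closely over the 32 libraries were found among 11413 genes with a mean of at least 1 CPM. For Cd274 they were Tapbpl (r = 0.993), Tap1 (r = 0.989) and Gbp4 (r = 0.989), and for Tnfrsf14 Apol10b (r = 0.977), Tap1 (r = 0.974) and Trafd1 (r = 0.973). Tap1 and Tapbpl act in peptide loading of MHC class I molecules. For Lgals9 they were Hsh2d (r = 0.907) and Trim25 (r = 0.893). For Cd276 they were Irgq (r = 0.905), Dnmt3a (r = 0.90), a de novo DNA methyltransferase, and Gdpd5 (r = 0.884). For Pvr they were Cnot7 (r = 0.935), Tfg (r = 0.932) and Mex3c (r = 0.930), and for Nectin2 Cd200 (r = 0.940), itself an inhibitory ligand, Atg13 (r = 0.936) and Slc8b1 (r = 0.930). Vsir had the loosest match, with Ttc5 (r = 0.802), Scrn2 (r = 0.775) and Cd302 (r = 0.770). These values carry no p-value, because the libraries share groups and replicate sets.

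The genes around the ligands were described from fixed lists, in si-dnmt against si-control without cytokine and in each cytokine state against none in si-control cells. Their calls come from the fit without the replicate block, and their values with the block were not examined. Over all genes tested, 9.58% were higher and 8.88% lower with si-dnmt, 16.1% higher and 14.6% lower with TNF, 8.56% higher and 5.92% lower with IFN, and 23.5% higher and 21.6% lower with TNF + IFN. Of 14 genes of IFNγ and NF-kB signaling, all tested, 7 were higher and 0 lower with si-dnmt (median log2 fold change 0.31). They included Socs1, the feedback inhibitor of JAK kinases (1.01 ± 0.30, SE, adjusted p = 0.0166), Jak2 (0.64 ± 0.11, adjusted p = 0.000188), Irf1 (0.51 ± 0.14, adjusted p = 0.0127) and 4 others. With TNF 10 were higher and 1 lower (median 0.71), led by Irf1 (2.01 ± 0.15) and Ifngr1, the receptor chain that binds IFNγ (1.68 ± 0.11), with Nfkbia (1.43 ± 0.22) and Socs1 (1.25 ± 0.30). With IFN 8 were higher and 1 lower (median 0.53), led by Socs1 (4.91 ± 0.30), Irf1 (4.40 ± 0.16) and Jak2 (1.73 ± 0.12), and with TNF + IFN 11 were higher and 1 lower (median 1.15). The lower ones, named after their values were seen, were Tnfrsf1a, a TNF receptor, with TNF (-0.86 ± 0.11) and with TNF + IFN (-0.30 ± 0.11), and Ifngr1 with IFN (-0.43 ± 0.11).

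Of 14 receptors and partners of the ligands 7 were tested. Rgmb was at 23.8 to 100.1 CPM and Havcr2 at 2.79 to 30.1 CPM, while Pdcd1, Cd226, Pvrig and Tnfsf14 had at most 2 counts in any library. With si-dnmt 1 was higher, Igsf11, a VISTA partner (3.43 ± 0.74, SE, adjusted p = 0.00145), from a level that did not exceed 35 counts in any library. With IFN 2 were higher, Igsf11 (3.31 ± 0.76, adjusted p = 0.00277) and Rgmb, a partner of PD-L2 (1.30 ± 0.11, adjusted p = 2.41e-10), with TNF edgeR called 0 of the 7 (1 at an unadjusted p under 0.05), and with TNF + IFN Igsf11 (3.28 ± 0.76) and Rgmb (0.43 ± 0.11) were higher and Havcr2, the TIM-3 gene, was lower (-1.53 ± 0.47, adjusted p = 0.00886). Of 13 relatives of the B7, nectin and galectin families 8 were tested. Cd86 and Vtcn1 had 0 counts in all libraries. Icosl, the ICOS ligand, was higher with si-dnmt (2.72 ± 0.88, adjusted p = 0.0298), TNF (6.18 ± 0.65, adjusted p = 3.3e-08) and TNF + IFN (4.89 ± 0.72, adjusted p = 2.39e-06). Its median was 0.526 CPM, with 0 counts in 4 libraries and at most 207 in any. Nectin3 was lower with si-dnmt (-0.53 ± 0.10, adjusted p = 0.000253). Lgals8 was higher in all 4 comparisons (0.34 to 0.61), and with TNF + IFN Lgals3 was higher (1.42 ± 0.23) and Nectin1 lower (-1.18 ± 0.38). In all, 2 were higher and 1 lower with si-dnmt, 2 and 0 with TNF, 1 and 0 with IFN, and 3 and 2 with TNF + IFN.

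Of 16 other inhibitory ligands and enzymes 11 were tested. With si-dnmt 0 were higher and 1, Clec2d, was lower (-0.82 ± 0.20, SE, adjusted p = 0.00385). With IFN 5 were higher and 1 lower, led by the tryptophan-degrading enzyme Ido1 (6.38 ± 0.49, adjusted p = 4.19e-11), H2-T23, the Qa-1 ligand of NKG2A (4.05 ± 0.32, adjusted p = 6.25e-11), and Tnfsf10, which encodes TRAIL (4.04 ± 0.50, adjusted p = 4.89e-07), while Ceacam1 fell (-1.66 ± 0.34, adjusted p = 0.000849). With TNF 5 were higher, among them Tnfsf10 (2.56 ± 0.47) and Arg2 (1.90 ± 0.47), and 2 lower, Ceacam1 (-1.90 ± 0.34) and Entpd1 (-1.24 ± 0.10). With TNF + IFN 7 were higher and 2 lower. Of 5 genes of PD-L1 protein stability, all tested, 1 was higher with si-dnmt, Cmtm4 (0.56 ± 0.14, adjusted p = 0.00476), 2 with TNF, 0 with IFN by edgeR (2 at an unadjusted p under 0.05) and 4 with TNF + IFN, which included Cmtm6, a stabilizer of PD-L1 at the cell surface (0.72 ± 0.22, adjusted p = 0.00950), and 0 were lower in any of these comparisons. PD-L1 protein was not measured in these libraries.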

How the data were processed

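RNA of 32 Veravec cell libraries in 8 groups of 4, grouped by the labels, was sequenced for the authors by Novogene. The deposited values are raw read counts per gene, made by the authors with featureCounts after trimming with cutadapt 4.9 and quality control with FastQC 0.12.1 and MultiQC 1.27.1, and the submitters' notes also list DESeq2. Neither the labels nor the methods name the aligner, genome build, annotation or strand setting.

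Counts were fitted as deposited with edgeR 4.0.16 (quasi-likelihood test, two-sided, TMM scaling, R 4.3.3) as 1 model of 8 group means over the 32 libraries, after filterByExpr with a minimum count of 10. Genes were called at a Benjamini-Hochberg adjusted p under 0.05 over 15254 genes, and SE is the fold change divided by the root of F. CPM values are TMM-scaled. Library totals of 17362546 to 33500030 set the precision, and limits from a count of 0 (3 counts) cover counting error only. Alternatives were RLE size factors, no filter, a replicate block, each pair of replicates, the contrast's groups alone, DESeq2 1.42.0 and leaving out each library. P-values from the fits of a pair of replicates measure the spread within that pair alone.

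In all 112 pairs of same-numbered libraries from different groups, deviations from the group means correlated above 0.1 (0.297 to 0.617, median 0.415). Replicates 1 and 2 resembled each other nearly as closely, as did 3 and 4. The median was 0.409 for another number of the same pair and -0.41 across pairs. The own number was the best match in 132 of 224 comparisons of a library with another group. These values show 2 sets of replicates and hardly separate the single numbers. That the numbers pair the libraries was therefore an assumption of the block and of the same-numbered ratios.

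Named genes are the 8 ligands, Dnmt1, the 3 genes most correlated with each ligand, and up to 4 called genes per list by size of change, of which some are not reported here. The ligands and lists were chosen with earlier results of these data known. Promoter windows came from RefSeq (GRCm38.p6), and the shortened ISRE was added after the sequences were seen.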

Additional observations from a re-analysis of the deposited data

Results flagged for a closer look

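Among 56 groups of 4 libraries (7 ligands in 8 groups), 3 held a library farther from the others than Dixon's 95% critical ratio allows, where chance gives about 1 in 20. Cd276 in si-control replicate 2 was at 48.5 CPM, with the others at 40.5 to 41.2 CPM (ratio 0.914). Tnfrsf14 in si-dnmt + TNF replicate 2 was at 6.24 CPM, with the others at 4.67 to 4.78 CPM (ratio 0.928). Vsir in si-control + IFN replicate 1 was at 2.24 CPM, with the others at 2.91 to 2.95 CPM (ratio 0.954).

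The cytokine response differed between the siRNAs in 4 interaction tests with the replicate block in edgeR. For Cd274 the interaction was -1.62 for IFN and -1.06 for TNF + IFN (adjusted p = 0.000148 and 0.00619). For Tnfrsf14 it was -1.17 for IFN and -0.92 for TNF + IFN (adjusted p = 0.0157 and 0.0270). Without the block edgeR called none of these 4.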

How the results depend on the processing

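Over the 7 ligands tested, the siRNA comparisons gave 13 calls of 28 tests (11 to 14 when 1 library was left out), 19 with the replicate block and 16 by DESeq2. Cytokine against none gave 19 of 42 (17 to 21 with 1 library left out), 31 with the replicate block and 29 in replicates 3 and 4 alone. Adding the second cytokine gave 10 of 28 (8 to 11), 18 with the block, and 16 in either pair of replicates alone. The TNF-by-IFN interaction gave 2 of 14 (2 in every such fit), 5 with the block and 6 in replicates 1 and 2 alone. The siRNA-by-cytokine interaction gave 0 of 21 by edgeR (0 to 1 with 1 library left out), 1 with RLE size factors and 1 with no filter. It gave 4 with the block, 5 in either pair of replicates alone and 2 by DESeq2. The pairs did not share all 5 calls. Both called Cd274 in every cytokine state, with TNF at -0.93 in replicates 1 and 2 and -0.54 in replicates 3 and 4. Lgals9 with TNF + IFN had opposite signs, -0.46 and 0.42 (edgeR adjusted p = 0.0341 and 0.0331). Tnfrsf14 with IFN was called only in replicates 1 and 2, and Nectin2 with TNF + IFN (0.59) only in replicates 3 and 4. The Cd274 siRNA difference with IFN was -0.27 and turned to 0.17 in replicates 3 and 4 alone. The cause was not tested.

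Of 133 ligand and contrast tests, 44 were called, and 77 with the replicate block. The 79 pairs followed were those called with or without the block, plus the Cd274 siRNA differences. The share of them called is therefore set by that choice. The block added 33 whose values stand beside the results, lost 0 of the 44 and changed no other call. Of the 44, 37 kept their call whichever library of the contrast's own groups was left out. The Lgals9 siRNA difference without cytokine and the Cd276 response to IFN in si-dnmt cells also lost their calls with no filter (0.46, adjusted p = 0.0659, and -0.28, adjusted p = 0.193) and with the contrast's groups alone (0.44, adjusted p = 0.0689, and -0.29, adjusted p = 0.0506). Depth limits Pdcd1lg2, Vsir and Tnfrsf14 most, and the labels give no day or batch for the replicate pairs.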
